A study of Mus musculus with 12 samples.

Results

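The common growth hormone effect was the difference between 6 treated and 6 untreated arrays of mouse embryonic fibroblasts (MEFs), with genotype held as a block, and it used all 12 of the 12 arrays of the series. The MEFs were of strain C57BL/6 and of 3 genotypes with 4 arrays each. WT were wild-type cells, KO were Stat5-null cells, and S5 were Stat5-null cells into which a retrovirus had brought a STAT5A vector. In each genotype 2 arrays came from untreated cells and 2 from cells given growth hormone for 120 minutes, and the design text names the 2 arrays of a group as biological duplicates. Neither a vehicle group nor a group with an empty vector is named in the labels, and every S5 array carries both the deletion and the viral infection. The sources used here do not say how the cells of each genotype were derived, so genotype and cell preparation cannot be told apart. A gene counted as moving the same way in every genotype when it passed the threshold of limma's test of the common effect (Benjamini-Hochberg adjusted p under 0.05 over 18193 genes) and when, in WT, KO and S5 alike, both treated arrays lay on the same side of both untreated arrays. This second condition is a description and carries no p. By itself it was met by 782 genes in the higher direction (4.3% of those tested) and 951 in the lower (5.23%).

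Growth hormone acts through a receptor that carries the kinase JAK2, and JAK2 in turn activates the transcription factors STAT5A and STAT5B, which switch on feedback inhibitors such as Socs2 and Cish. The receptor can also feed into kinase cascades that do not use STAT5. NF-kB is a family of dimeric factors (subunits such as Relb and Nfkb2) that inhibitors of the IkB family hold in the cytoplasm, and in fibroblasts it drives chemokines and, as feedback, its own inhibitors and brakes. ATF4 is the factor that raises amino acid synthesis and uptake genes when amino acids run short or proteins misfold.

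The cells read as fibroblasts, with limits in S5, and the WT arrays carried macrophage and blood markers as well. Of 12 fibroblast markers measured, none lay below 4 on the log2 scale in both WT groups, 1 did in KO (Lum) and 2 did in S5 (Lum and Fap), and Thy1 stood at 4.31 and 2.88 in the S5 groups against 14.11 to 14.26 in the other groups. Values below 4 form the low mode of these arrays, where differences are compressed, so a group mean below 4 was set to 4 for folds and the fold is then given as "at least". The mean level of 15 macrophage and blood markers was 8.77 to 10.49 on WT arrays, 3.61 to 3.96 on KO arrays and 3.05 to 3.33 on S5 arrays. Of these markers 10, among them Ptprc, Adgre1, Tyrobp and Cd52, lay below 4 in every KO and S5 group. Others did not. Cd68 stood at 7.96 and 8.26 in the KO groups and at 7.73 and 7.82 in the S5 groups. Csf1r stood at 7.73 and 8.18 in KO and at 6.58 and 4.84 in S5, and Lyz2 at 6.41 and 7.02 in KO. In WT, Itgam and Spi1 lay below 4 in both groups. Counts of list members called are therefore given with and without the WT arrays. Endothelial, epithelial and skeletal muscle markers lay in the low mode in all groups for 6 of 7, 6 of 7 and 6 of 6 genes. The exceptions were Tek, at 9.35 in untreated S5 cells, and Krt18, at 7.89 in untreated KO cells. Of 4 adipocyte markers measured only Adipoq lay below 4 in every group. Fabp4 stood at 10.16, 4.32 and 10.84 in untreated WT, KO and S5 cells, and Lpl at 13.48, 12.20 and 6.62. Duplicates correlated with r of 0.99 to 0.996 over 10947 genes, which are not independent replicates. The number of arrays limits the precision of every value.

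The promoters of 4 genes on which the results turn are shown first, because their transcripts rose in every genotype and because each holds a match to the kappaB consensus, the decameric sequence that NF-kB dimers bind. Each run gives the 250 bases before the RefSeq start site (GRCm38.p6), read 5′ to 3′ on the strand of the gene, with the matches on either strand in capitals. Cxcl1 lies at chr5:90890995-90891244 (plus strand), Cxcl10 at chr5:92348890-92349139 (minus strand), Nfkbie at chr17:45555450-45555699 (plus strand) and Nfkbia at chr12:55492648-55492897 (minus strand). The first 2 encode secreted chemokines and the other two encode IkB proteins.
Cxcl1: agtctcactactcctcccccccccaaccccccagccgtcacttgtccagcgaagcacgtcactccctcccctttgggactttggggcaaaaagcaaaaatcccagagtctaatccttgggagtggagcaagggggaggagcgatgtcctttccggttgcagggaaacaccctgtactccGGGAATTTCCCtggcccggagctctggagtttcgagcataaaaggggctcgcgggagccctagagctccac
Cxcl10: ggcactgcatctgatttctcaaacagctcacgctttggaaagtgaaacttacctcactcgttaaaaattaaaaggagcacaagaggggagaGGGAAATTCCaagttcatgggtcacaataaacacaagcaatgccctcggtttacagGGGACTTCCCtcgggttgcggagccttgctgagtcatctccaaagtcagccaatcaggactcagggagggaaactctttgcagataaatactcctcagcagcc
Nfkbie: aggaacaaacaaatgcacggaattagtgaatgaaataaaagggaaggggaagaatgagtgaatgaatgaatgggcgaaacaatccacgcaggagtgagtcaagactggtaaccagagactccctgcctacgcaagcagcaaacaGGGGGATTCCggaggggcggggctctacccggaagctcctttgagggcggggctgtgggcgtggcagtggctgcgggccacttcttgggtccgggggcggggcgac
Nfkbia: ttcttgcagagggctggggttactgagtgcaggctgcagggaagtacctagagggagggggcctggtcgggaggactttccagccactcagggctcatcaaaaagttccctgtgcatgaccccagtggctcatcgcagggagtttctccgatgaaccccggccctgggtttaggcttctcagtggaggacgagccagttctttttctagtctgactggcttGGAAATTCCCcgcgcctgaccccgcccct
In Cxcl1 a match on each strand overlaps at 71 and 70 bases before the start site. Cxcl10 has matches that begin 159 and 103 bases before it, Nfkbie 1 at 106 and Nfkbia 1 at 29. Over windows of 300 bases, 250 before the start and 50 after it, the consensus was found in 6 of the 13 named genes higher in every genotype that had a window in the RefSeq table (46.2%). It was found in 16 of 46 genes higher in every genotype by 2-fold or more on average (34.8%), in 53 of 518 of all genes higher in every genotype (10.2%), in 2 of the 10 named genes lower in every genotype with a window, in 19 of 485 of all genes lower in every genotype (3.92%), and in 877 of 14452 genes tested (6.07%). It was present in 4.51% of all 32851 windows of that length. The palindromic STAT motif TTCNNNGAA was in 46 of the 518 genes that were higher (8.88%) and in 7 of the 46 of those higher by 2-fold or more (15.2%). It was in none of the 13 named genes higher in every genotype, and in 8.57% of all genes tested that had a window. TGANTCA, the AP-1 motif, was in 3 of the 13, in 5 of the 46 (10.9%) and in 21 of the 518 (4.05%), against 7.54% of genes tested that had a window. Matches overlap other motifs in places, and they describe letters in a window, not bound sites.

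Growth hormone raised and lowered similar numbers of genes in every genotype, most of them by less than 2-fold. Of 18193 genes, 819 were called higher (4.5% of those tested) and 820 lower (4.51%), together 1639 (9.01%). Of these, 632 rose with no overlap in any genotype (3.47% of genes tested) and 600 fell so (3.3%). The direction was the same in all 3 genotypes, overlap aside, for 817 of the 819 and 818 of the 820. The test itself favours such genes, because effects that differ between genotypes enlarge its residual, so this agreement supports nothing. The same share over all genes was not counted. The median log2 difference of the 632 was 0.414 and of the 600 it was -0.415, against -0.025 over all genes, and 63 of the 632 and 26 of the 600 changed by 2-fold or more on average. After flooring, 21 of the 632 and 3 of the 600 changed by at least 2-fold in every genotype. Genes of these groups were well expressed, with a median level of 9.88 for the 632 and 10.06 for the 600 against 7.15 for all genes.

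Tested alone, the Stat5-null cells gave the fewest calls, 41 higher and 15 lower over all genes, against 557 and 535 in WT and 660 and 773 in S5. That KO shares the direction of the 632 and 600 genes was fixed by the rule, so the values of these genes by genotype are a description and support nothing. Among the 632 genes that rose, the median difference was 0.403 in WT, 0.380 in KO and 0.448 in S5, and KO had the smallest of the 3 differences for 250 of them. Among the 600 that fell the medians were -0.411, -0.305 and -0.445, and KO had the smallest fall for 344. Tested in one genotype alone, 181 of the 632 passed in WT (3.06% of genes tested were called higher there), 32 in KO (0.225%) and 235 in S5 (3.63%), 21 passed in all 3 and 317 in none. Of the 600, 181 passed in WT (2.94% of genes tested were called lower), 6 in KO (0.0824%) and 242 in S5 (4.25%), 3 passed in all 3 and 278 in none. A moderated F-test of the interaction called the size of the effect unequal between genotypes for 531 of all genes (2.92%), for 32 of the 632 and for 7 of the 600. A p that misses the threshold does not show that the effects were equal.

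**Figure D1:**
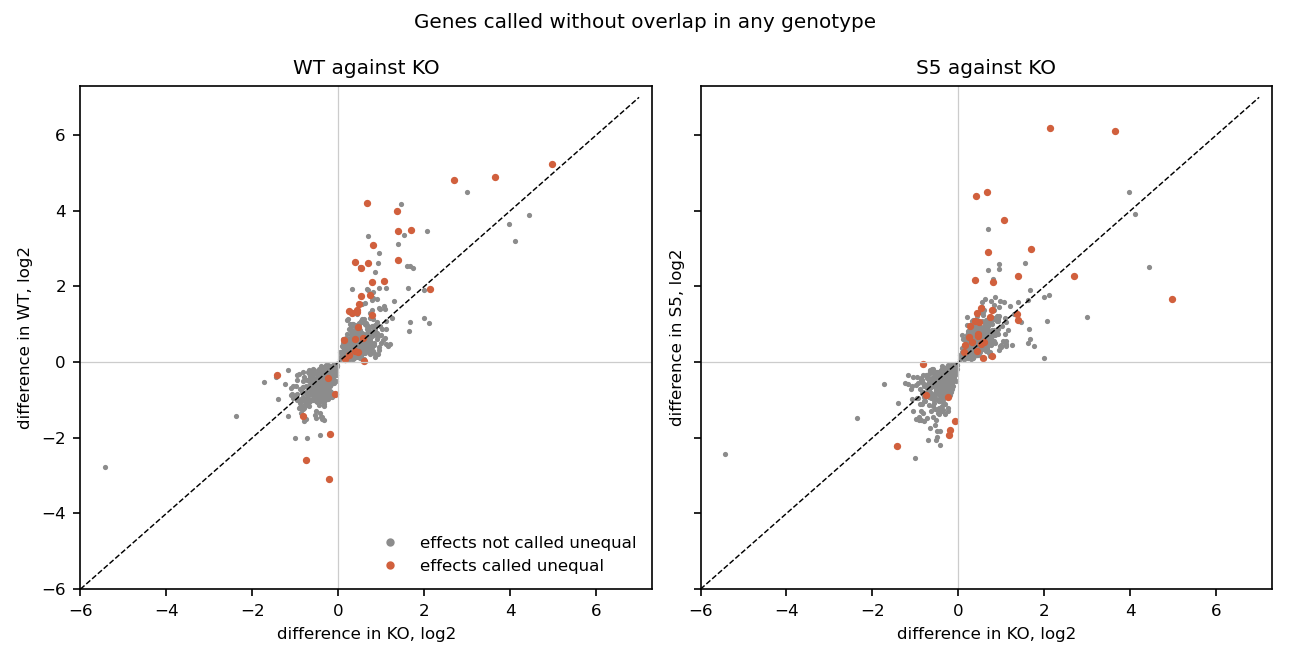
Each point is 1 of the 632 genes higher or 600 genes lower in every genotype. The horizontal axis is the treated minus untreated log2 difference in KO and the vertical axes are those in WT (left) and S5 (right), the dashed line marks equal differences, and the genes whose effects were called unequal (32 and 7) are in orange. All points lie in the quadrants of equal sign because the rule chose them so, and most lie within 1 log2 unit of zero.

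These counts depended on single arrays and on each genotype. Without S5 replicate 2 the counts of genes called fell to 392 higher and 380 lower, and to 381 and 360 with no overlap. The counts called also fell by more than 1.5-fold without WT replicate 2 (495 and 488), WT_GH replicate 2 (444 and 427), S5 replicate 1 (484 and 422) and S5_GH replicate 1 (441 and 459), and the lower count without WT replicate 1 (487). Without the 4 WT arrays 163 genes were called higher and 89 lower, all without overlap, of which 125 and 63 were among the 632 and 600. Without the KO arrays they were 567 and 784, and without the S5 arrays 80 and 55. Of the 28 genes named below by rule, 11 lost the call without the WT arrays, 4 without the KO arrays and 16 without the S5 arrays. Every one kept its direction, but the rule that chose them fixed this in advance, so it supports nothing.

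Bcl3, Cxcl5 and Cxcl1 headed the genes that rose in every genotype, ordered by the smallest of the 3 differences. Bcl3, an atypical IkB protein that works in the nucleus as a cofactor of NF-kB, went from 8.48 and 8.38 to 12.04 and 12.13 in WT, from 3.71 and 3.10 to 7.36 and 7.40 in KO and from 2.91 and 4.33 to 8.18 and 8.08 in S5. All 6 treated values lay above the untreated values of their own genotype by more than 3 log2 units. The common difference was 4.05 (SE 0.24, limma adjusted p = 0.000236), which was 12.6-fold in WT, at least 10.4-fold in KO and at least 17.5-fold in S5. The 3 effects were not called unequal (adjusted p = 0.949).

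Cxcl5, a chemokine that attracts neutrophils, went from 9.55 and 10.42 to 13.19 and 13.21 in WT, from 2.46 and 2.56 to 6.57 and 6.66 in KO and from 7.36 and 7.38 to 11.22 and 11.38 in S5. The rise began from very different levels, near 10 in WT, below 3 in KO and above 7 in S5. The common difference was 3.75 (SE 0.18, adjusted p = 8.91e-05) and the rise in KO at least 6.12-fold. Cxcl1, a close relative with the same target cells, went from 9.67 and 8.91 to 13.22 and 13.15 in WT, from 5.04 and 3.39 to 8.63 and 8.68 in KO and from 9.55 and 9.63 to 12.18 and 12.03 in S5. Its untreated KO arrays lay far apart, and both were below every other Cxcl1 value. The common difference was 3.62 (SE 0.37, adjusted p = 0.00184), 14.9-fold in WT, 21.7-fold in KO and 5.72-fold in S5. Another 2 Cxcl1 probe sets rose by 6.48 and 6.57 in KO and by 2.08 and 2.66 in S5.

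Cxcl10, Ccl2, Cxcl2 and Cx3cl1 rose in every genotype by amounts that differed. Cxcl10, which attracts T cells and is induced by interferon and NF-kB, went from 8.91 and 8.90 to 13.78 and 13.82 in WT, from 2.81 and 2.42 to 6.16 and 6.37 in KO and from 2.30 and 2.08 to 8.27 and 8.34 in S5. It had the largest common difference of the genes called without overlap, 4.89 (SE 0.34, adjusted p = 0.000678), and the KO rise was the smallest at 3.65 (unequal effects, adjusted p = 0.00205). Ccl2, which attracts monocytes, went from 12.71 and 12.53 to 14.57 and 14.56 in WT, from 10.48 and 10.11 to 12.45 and 12.40 in KO and from 6.36 and 6.27 to 12.68 and 12.33 in S5. The S5 cells began lowest and reached the KO level, so that the difference was 1.94 in WT, 2.14 in KO and 6.18 in S5 (common 3.42, SE 0.65, adjusted p = 0.0174; unequal effects, adjusted p = 9.3e-05). Cxcl2 rose by 5.24 in WT and 4.97 in KO, whereas its S5 values, 2.40 and 2.44 untreated and 4.37 and 3.81 treated, stayed near the low mode (common adjusted p = 0.00709). Its S5 rise was at least 1.06-fold and did not pass alone (limma adjusted p = 0.0602). The common call of Cxcl2 was lost with values below 4 set to 4 (adjusted p = 0.0558). It was also lost without the WT arrays (0.0794) or the KO arrays (0.056). Cx3cl1, a chemokine tethered to the cell membrane, differed by 3.47 in WT, 1.38 in KO and 1.12 in S5 (common adjusted p = 0.0146), but its other 3 probe sets lay near or in the low mode and moved by 0.03 or less in KO.

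**Figure D2:**
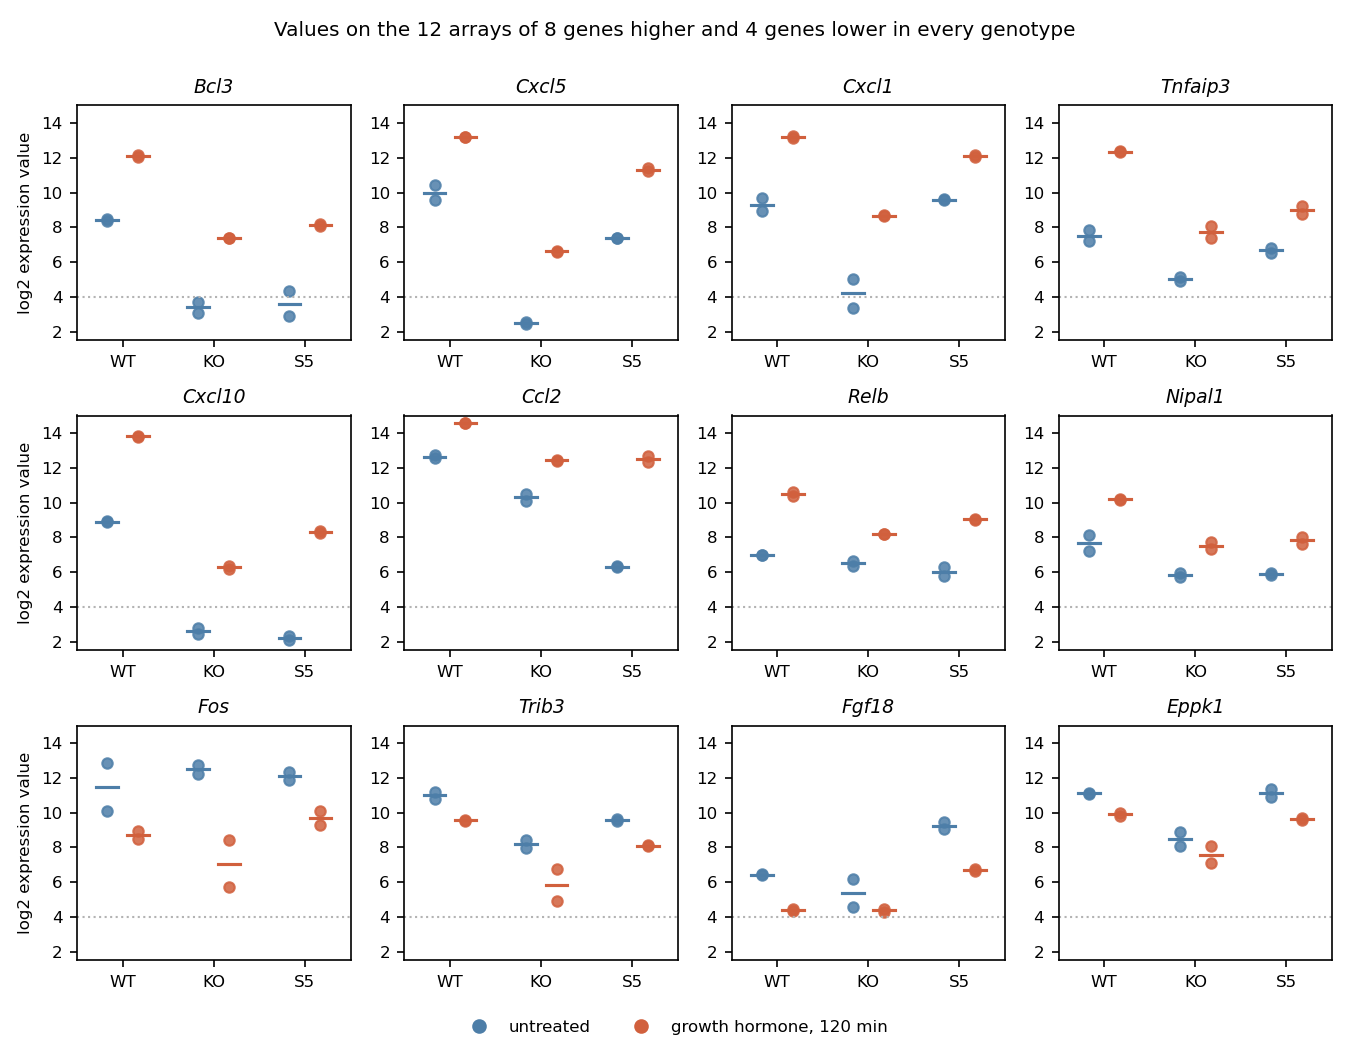
Log2 expression values (vertical axis) of 8 genes higher and 4 genes lower in every genotype, on the 2 untreated arrays (blue) and the 2 arrays with growth hormone for 120 minutes (orange) of WT, KO and S5. Points are single arrays, bars are group means, and the dotted line is the low mode bound at 4. In each panel the treated arrays of a genotype do not overlap its untreated arrays. The rule that chose the genes fixed this and the shared direction. Starting levels differ widely between genotypes for some genes, such as Cxcl5, and little for others, such as Relb.

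Of the 31 chemokines measured (32 listed), 9 were called higher and none lower, against 4.5% and 4.51% of all genes. Of the 31, 7 were called higher without overlap, against 3.47% of all genes. The list's median common difference was 1.44 and its medians by genotype were 2.39 in WT, 0.02 in KO and 0.01 in S5. The other called members were Ccl7 (differences 2.14, 1.07 and 3.76), Ccl17 and Ccl8. Ccl8 had a difference of 0.01 in S5 and Ccl17 of 0.11 in KO. Effects were called unequal for 13 of the 31, against 2.92% of all genes. Ccl4, Ccl20 and Ccl22, chosen after their values were seen, with WT differences of 7.66, 5.59 and 5.37, differed by 0.05 or less in KO and S5 and were not called in the common effect (adjusted p = 0.202 to 0.219). The WT arrays also carried the macrophage markers given above, and the part of those cells in the result was not tested. Without the WT arrays 4 of the chemokines were called higher, and without the KO or the S5 arrays 6.

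Several inhibitors of NF-kB and the subunit genes Relb and Nfkb2 rose in every genotype. Of 27 genes of the NF-kB list measured (31 listed), 16 were called higher, 15 of them without overlap, and none lower, against 4.5% and 4.51% of all genes. Without overlap 3.47% of all genes were called higher. The list's median common difference was 0.89, with medians of 1.57 in WT, 0.42 in KO and 0.57 in S5. The effects of 9 members were called unequal, against 2.92% of all genes. Without the WT arrays 8 were called higher, without the KO arrays 14 and without the S5 arrays 3.

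Nfkbia, the IkB protein that NF-kB itself induces, had the smallest adjusted p of the list. It went from 12.86 and 13.02 to 13.98 and 14.01 in WT, from 12.35 and 12.41 to 13.32 and 13.21 in KO and from 12.84 and 12.87 to 13.62 and 13.65 in S5. Treated and untreated arrays stood apart in each genotype by more than the spread of duplicates, and the common difference was 0.91 (SE 0.05, adjusted p = 0.000154). This probe set sits near the top of the scale in untreated cells. The other 4 Nfkbia probe sets differed by 1.22 to 4.19 in WT, 0.74 to 1.88 in KO and 0.94 to 2.64 in S5. Tnfaip3, the ubiquitin-editing protein A20 that shuts NF-kB signalling off, went from 7.20 and 7.85 to 12.38 and 12.31 in WT, from 5.12 and 4.94 to 7.36 and 8.08 in KO and from 6.54 and 6.83 to 9.22 and 8.74 in S5. Its common difference was 3.27 (SE 0.40, adjusted p = 0.00405) and the WT rise, 28.2-fold, exceeded those in KO, 6.47-fold, and in S5, 4.9-fold (unequal effects, adjusted p = 0.0409). A second Tnfaip3 probe set lay between 1.70 and 1.76 in all groups. Nfkbie, another IkB protein, differed by 3.99 in WT, 1.36 in KO and 1.28 in S5 (common adjusted p = 0.0185; unequal effects, adjusted p = 0.00698), and Nfkbib by 1.76, 0.53 and 0.48.

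Relb, a subunit of the slower, non-canonical NF-kB dimers, went from 7.0 and 7.0 to 10.37 and 10.60 in WT, from 6.66 and 6.35 to 8.18 and 8.20 in KO and from 6.29 and 5.76 to 9.04 and 9.02 in S5. The common difference was 2.73 (SE 0.27, adjusted p = 0.00179), with the smallest rise, 3.22-fold, in KO (unequal effects, adjusted p = 0.023). Nfkb2, its usual partner, rose by 1.28 (1.86 in WT, 0.80 in KO and 1.17 in S5). Zc3h12a, an RNase that degrades cytokine transcripts, rose by 2.51 (SE 0.27, adjusted p = 0.00252) from group means below 4 to 6.55 in WT, 4.30 in KO and 5.27 in S5, hence at least 1.23-fold in KO. The subunit genes Rel and Rela did not pass (adjusted p = 0.247 and 0.166). Rel differed by 2.83 in WT, 0.04 in KO and -0.24 in S5. The inhibitors Tnip1, Nfkbid and Tnip2 did not pass either (adjusted p = 0.0735, 0.218 and 0.309), with differences of 0.17, 0.01 and -0.27 in KO. Traf1, an adaptor of the TNF receptor family, had the largest WT difference of the list, 7.0, beside -0.01 in KO and 0.01 in S5. The members called higher thus included inhibitors of the pathway (Nfkbia, Nfkbib, Nfkbie, Tnfaip3, Cyld) as well as the subunits Relb and Nfkb2.

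Other named genes outside both lists also rose in every genotype. Gch1, the first enzyme of tetrahydrobiopterin synthesis, differed by 3.11 in WT, 1.39 in KO and 1.58 in S5 (common 2.03, SE 0.30, adjusted p = 0.00757). Nipal1, a membrane transporter, differed by 2.53 in WT, 1.66 in KO and 1.92 in S5 (adjusted p = 0.00168), and Micall2, a regulator of vesicle recycling, by 2.54 in WT, 1.61 in KO and 1.64 in S5 (adjusted p = 0.00127). For these 3 genes the effects were not called unequal, and a second probe set of Nipal1 and of Gch1 rose in each genotype too. Lcat, which esterifies cholesterol in lipoproteins, differed by 1.61 in WT, 1.29 in KO and 1.28 in S5 (adjusted p = 0.00515). Rpusd1, a member of the pseudouridine synthase family, was low throughout, at 4.63 and 4.63 untreated and 6.64 and 6.60 treated in KO (common 1.63, adjusted p = 0.00576). Hivep3, a large zinc finger protein, rose by 2.12 (adjusted p = 0.00145), while its other 4 probe sets lay between 1.82 and 2.68 and differed by 0.20 or less in size. Nr4a3, an orphan nuclear receptor and immediate early gene, differed by 4.50 in WT, 3.0 in KO and 1.19 in S5 (adjusted p = 0.0115), and its other 2 probe sets likewise stayed in the low mode. By the naming rule the 16th gene was Cx3cl1, with a smallest difference of 1.12, and the next gene, not named by it, was Nr6a1 with 1.09.

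**Figure D3:**
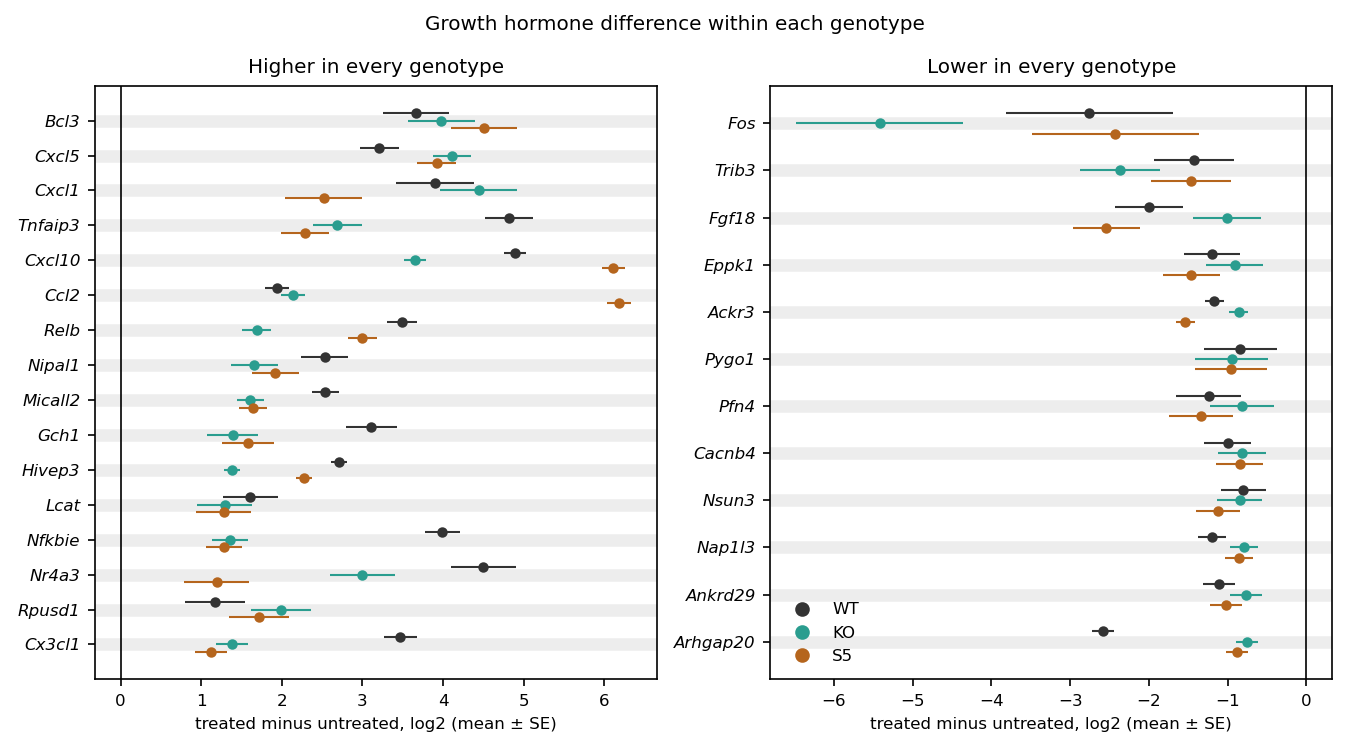
Treated minus untreated log2 differences (horizontal axis, mean ± SE of the 6-group fit, 2 against 2 arrays) in WT, KO and S5 for the 16 genes named as higher (left) and the 12 named as lower (right) in every genotype. Genes are ordered by the smallest of their 3 differences after flooring. Bcl3 and Cxcl5 rose by more than 3 log2 units in every genotype, and Fos fell by more than 2.

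The genes that fell in every genotype were led by Fos and Trib3. Fos, a subunit of the AP-1 factor that growth signals induce within minutes and that then declines, went from 12.83 and 10.11 to 8.93 and 8.49 in WT, from 12.74 and 12.21 to 5.70 and 8.41 in KO and from 11.88 and 12.31 to 9.27 and 10.06 in S5. Untreated cells held high levels in all genotypes, and every treated array lay below every untreated array, although the duplicates of untreated WT and of treated KO cells lay far apart. The common difference was -3.54 (SE 0.70, adjusted p = 0.0194), and in no genotype alone did it pass (adjusted p = 0.114 to 0.257). Trib3, a pseudokinase that ATF4 induces, went from 11.20 and 10.79 to 9.54 and 9.57 in WT, from 8.43 and 7.98 to 4.93 and 6.75 in KO and from 9.52 and 9.61 to 8.05 and 8.15 in S5 (common difference -1.76, SE 0.30, adjusted p = 0.0113). Its second probe set differed by -1.25, -2.56 and -1.51 in the same order of genotypes.

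Fgf18, a secreted growth factor, went from 6.44 and 6.39 to 4.35 and 4.47 in WT, from 6.17 and 4.58 to 4.28 and 4.46 in KO and from 9.43 and 9.07 to 6.66 and 6.76 in S5. The S5 cells held the most transcript and had the largest difference (common -1.85, SE 0.31, adjusted p = 0.0107). Eppk1, a plakin that binds intermediate filaments, differed by -1.20 in WT, -0.91 in KO and -1.46 in S5 (adjusted p = 0.011), and its closest treated and untreated KO arrays read 8.05 and 8.07. Ackr3, a decoy receptor that removes the chemokine Cxcl12, went from 11.57 and 11.66 to 10.59 and 10.31 in WT, from 10.81 and 10.82 to 9.94 and 9.96 in KO and from 12.30 and 12.23 to 10.56 and 10.89 in S5 and had the smallest adjusted p of the named genes that fell (0.00168, common difference -1.19, SE 0.11). Arhgap20 differed by -2.58 in WT, -0.76 in KO and -0.88 in S5 (adjusted p = 0.0201; unequal effects, adjusted p = 0.00582). It was the 12th and last gene named, with a smallest difference of 0.76 against 0.74 for Vsir, the next. The other named genes fell by 0.89 to 1.13 on the log2 scale. They were the Wnt cofactor Pygo1, the profilin Pfn4, the calcium channel subunit Cacnb4, the mitochondrial tRNA methyltransferase Nsun3, the histone chaperone relative Nap1l3 and the ankyrin repeat gene Ankrd29. Pygo1 (adjusted p = 0.0464) lost its call when any array but S5 replicate 1 was left out, and other probe sets of Arhgap20, Ankrd29, Cacnb4 and Nsun3 lay near or in the low mode and did not fall in every genotype by a like amount.

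Some of the genes that ATF4 drives in amino acid shortage fell, from Slc7a1 by 0.23 to Trib3 by 1.76 on the log2 scale. Of 25 measured, 10 were called lower, 7 without overlap, and none higher, against 4.51% and 4.5% of all genes, and the list's median was -0.15. Without overlap 3.3% of all genes were called lower. Mthfd2, a mitochondrial folate enzyme, went from 12.89 and 12.86 to 12.59 and 12.63 in WT, from 11.31 and 11.28 to 10.88 and 10.81 in KO and from 12.02 and 11.94 to 11.60 and 11.70 in S5. Its common difference of -0.35 had an SE of 0.04 and an adjusted p of 0.00179, and it passed in each genotype alone. Slc7a5, an importer of large amino acids, differed by -0.27 in WT, -0.59 in KO and -0.62 in S5 (adjusted p = 0.00698), and Psph, the last enzyme of serine synthesis, by -0.46 in WT, -0.25 in KO and -0.40 in S5 (adjusted p = 0.00501). Gpt2, a mitochondrial alanine transaminase, fell by 0.34 (adjusted p = 0.00775). Chac1, which degrades glutathione, differed by -0.40, -1.44 and -2.22, and Cth, an enzyme of cysteine synthesis, by -0.66, -0.81 and -1.55. Atf4 itself (-0.04, adjusted p = 0.532) and its target Asns (-0.04, adjusted p = 0.402) did not pass. The count was 5 without S5 replicate 2, 6 without WT_GH replicate 2, S5_GH replicate 1 or S5_GH replicate 2, and 3, 6 and 1 without the WT, KO and S5 arrays.

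Immediate early genes moved in both directions. Of 43 measured, 6 were called higher and 5 lower, against 4.5% and 4.51% of all genes, with a median of 0.03. Without the WT arrays 1 was called higher and 2 lower, without the KO arrays 9 and 0, and without the S5 arrays 2 and 0. Beside Nr4a3, the AP-1 subunit genes Fosl1 (differences 2.38 in WT, 0.85 in KO and 1.72 in S5; adjusted p = 0.0196) and Fosl2 (0.17 in WT, 0.18 in KO and 0.24 in S5; adjusted p = 0.00405) rose while Fos fell. A second Fosl1 probe set lay in the low mode, and Fosl2 was not called when its probe sets were averaged (adjusted p = 0.584). Klf2, a Kruppel-like factor, differed by -0.90 in WT, -1.48 in KO and -2.22 in S5 (adjusted p = 0.0198) with overlap in WT. Among 18 MAPK phosphatases and Sprouty proteins, which damp growth factor cascades, 4 were called lower and none higher, with a median of -0.01, and 1 was called lower without the WT arrays. Dusp1, the phosphatase that inactivates stress kinases, differed by -0.36 in WT, -0.48 in KO and -0.44 in S5 (adjusted p = 0.0226) and Spry1 by -0.77 in WT, -0.65 in KO and -0.21 in S5 (adjusted p = 0.0254), in S5 within the low mode. The lower calls of immediate early genes dropped to between 1 and 3 without any array but WT replicate 2. Those of the phosphatases and Sprouty genes dropped to between 0 and 2 without WT replicate 1 or 2, WT_GH replicate 2 or any S5 or S5_GH array.

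The JAK-STAT list held 37 measured genes, of which 6 rose, all without overlap, and none fell, against 4.5% and 4.51% of all genes (median 0.18). Without overlap 3.47% of all genes were called higher. The 6 became 2 without the WT arrays, 3 without the KO arrays and 2 without the S5 arrays. Ptpn1, a phosphatase that acts on JAK2, went from 7.70 and 7.58 to 8.23 and 8.44 in WT, from 6.85 and 6.94 to 7.76 and 7.87 in KO and from 7.31 and 7.39 to 8.58 and 8.32 in S5, and passed in each genotype alone (common 0.91, SE 0.08, adjusted p = 0.00119). Ptpn2, a related phosphatase, rose by 0.44 (adjusted p = 0.00221), but not when its probe sets were averaged (adjusted p = 0.175). Jak2 itself went from 12.04 and 12.11 to 12.55 and 12.44 in WT, from 12.04 and 12.07 to 12.24 and 12.43 in KO and from 12.26 and 12.21 to 12.39 and 12.46 in S5, a common difference of 0.30 (SE 0.05, adjusted p = 0.00915) that was lost without the WT arrays (adjusted p = 0.0759) or the S5 arrays (0.0675). The receptor chains Il4ra, Osmr and Ifnar1 rose by 0.57, 0.39 and 0.39. The receptor gene Ghr ranged from 13.90 to 14.12 over all 12 arrays (adjusted p = 0.928). The list's count was 3 without each of WT replicate 1, WT_GH replicate 1, WT_GH replicate 2, KO replicate 2, KO_GH replicate 2 and S5_GH replicate 1.

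Socs2, Cish and Bcl6, classical STAT5 targets, responded unequally in the 3 genotypes. Of 31 STAT5 and growth hormone targets 1 was called higher and 2 lower (median 0.06), a share near that of all genes, and none was called without the WT arrays. Stat5a stood at 11.51 and 11.45 untreated and 12.11 and 12.39 treated in WT, and between 2.34 and 2.47 on the KO and S5 arrays, as a check of the labels. Another Stat5a probe set read 9.88 and 9.09 in the S5 groups but 2.24 and 2.35 in WT and 2.23 and 2.22 in KO, so neither probe set reads Stat5a in both WT and S5. Stat5b lay between 8.98 and 9.39 in WT and between 1.93 and 2.01 elsewhere. Whether the probes lie inside the deleted parts was not analysed here. Socs2 went from 7.14 and 7.28 to 11.44 and 11.42 in WT, from 4.69 and 4.64 to 5.28 and 5.40 in KO and from 8.88 and 8.96 to 13.22 and 13.64 in S5. It passed in the common effect (3.14, SE 0.58, adjusted p = 0.0157) because a model without an interaction averages the genotypes, while the difference in KO, 0.67, did not pass alone (adjusted p = 0.104; unequal effects, adjusted p = 7.32e-05).

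Cish, the other feedback inhibitor, went from 4.84 and 5.17 to 8.22 and 8.07 in WT, from 4.99 and 4.76 to 4.32 and 4.69 in KO and from 3.45 and 3.55 to 9.33 and 9.17 in S5. Its KO arrays overlapped, and it was not called in the common effect (adjusted p = 0.0679; unequal effects, adjusted p = 3.2e-05). Bcl6, a transcriptional repressor, went from 12.56 and 12.64 to 10.74 and 10.71 in WT, from 12.16 and 12.37 to 12.28 and 12.26 in KO and from 12.11 and 12.23 to 11.08 and 10.83 in S5. It fell in WT and S5, the KO arrays overlapped with a difference of 0.00, and the model gave a common difference of -1.03 (adjusted p = 0.0431; unequal effects, adjusted p = 0.00149). That common call was lost without any one of 9 arrays. Igf1 did not pass (0.24, adjusted p = 0.421). Nox4, an NADPH oxidase, differed by -0.71 in WT, -0.52 in KO and -0.49 in S5 (adjusted p = 0.00756).

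**Figure D4:**
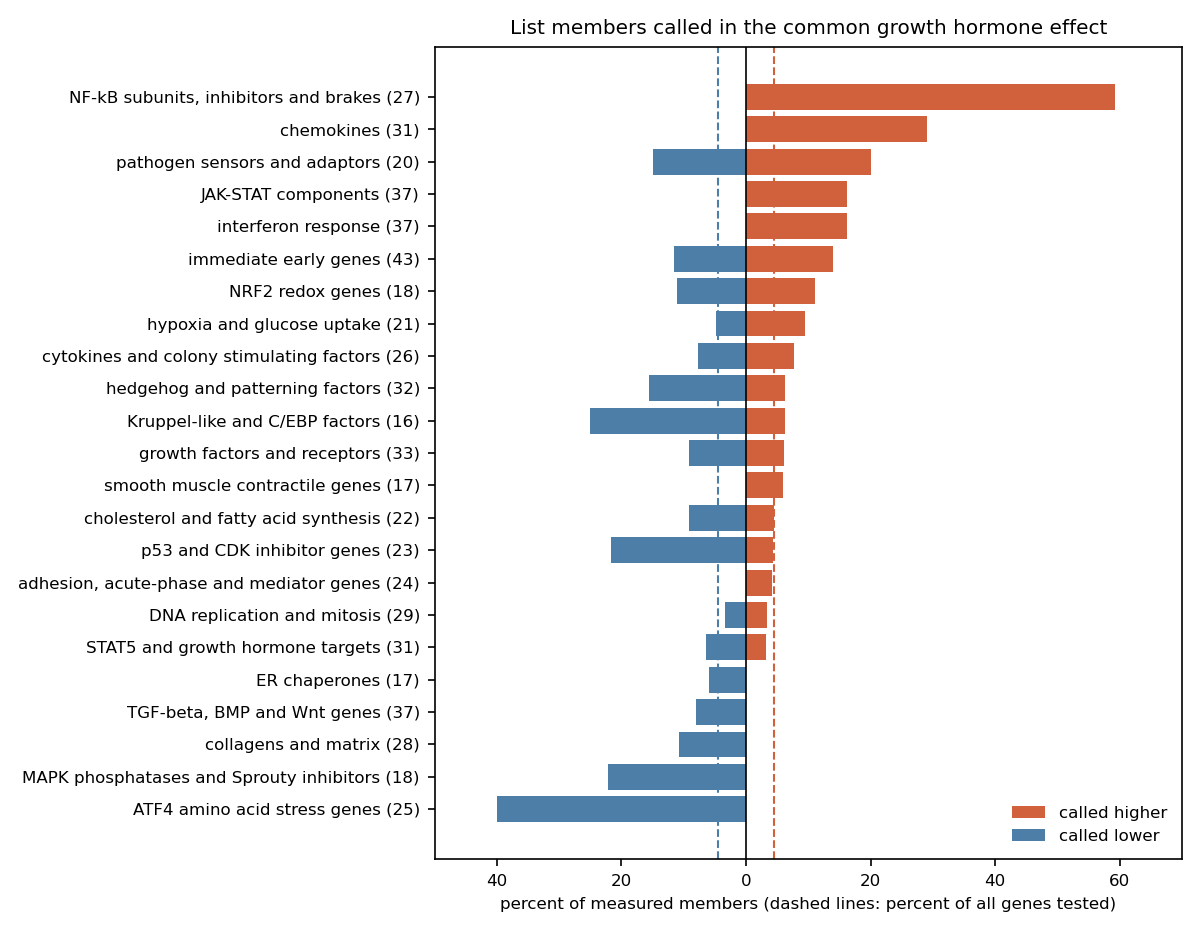
Share of the measured members of 23 gene lists called higher (orange, to the right) or lower (blue, to the left) in the common effect, in percent, with the number measured in parentheses. Dashed lines mark the shares over all 18193 genes, 4.5% and 4.51%. The NF-kB list (16 of 27 higher), the chemokines (9 of 31 higher) and the ATF4 list (10 of 25 lower) reach farthest from the dashed lines.

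The 6 interferon response genes called in the common effect had their smallest difference in KO, but the list's medians were near 0 in both KO and S5. Of 37 measured these 6 were called higher, 4 without overlap, and none lower, against 4.5% and 4.51% of all genes (median 0.38, with 0.76 in WT, -0.01 in KO and -0.02 in S5). Without overlap 3.47% of all genes were called higher. Irf1, a transcription factor of the interferon response, went from 7.45 and 7.58 to 10.56 and 10.64 in WT, from 7.32 and 6.66 to 7.86 and 7.73 in KO and from 7.19 and 7.46 to 9.51 and 9.41 in S5 (common 2.01, SE 0.33, adjusted p = 0.0103; unequal effects, adjusted p = 0.0155). Gbp7, a guanylate-binding protein, differed by 2.63 in WT, 0.70 in KO and 2.91 in S5 (adjusted p = 0.0107; unequal effects, adjusted p = 0.0177). The count was 0 without the WT arrays, 0 without the S5 arrays and 8 without the KO arrays, and it was 2 without WT_GH replicate 2 or S5 replicate 2 and 3 without S5 replicate 1 or S5_GH replicate 1.

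Among 26 cytokines and colony stimulating factors 2 rose and 2 fell, against 4.5% and 4.51% of all genes (median 0.18). For this list 0 and 1 were called without the WT arrays. Csf1, the growth factor of macrophages, differed by 1.33 in WT, 0.44 in KO and 1.29 in S5 (adjusted p = 0.00656; unequal effects, adjusted p = 0.0263), and Ctf1, cardiotrophin, by -0.47 in WT, -0.53 in KO and -0.42 in S5 (adjusted p = 0.00906). Of 24 adhesion and acute-phase genes 1 was called higher, a share near that of all genes, and none lower. It was Plaur, the urokinase receptor, at 1.02 (adjusted p = 0.0221), and no gene of this list was called without the WT arrays. Of 20 pathogen sensors and adaptors 4 were called higher and 3 lower, against the same 4.5% and 4.51% of all genes. The 4 became 0 without any one of WT replicate 2, WT_GH replicate 2, S5 replicate 1, S5 replicate 2 and S5_GH replicate 1. Without the WT arrays 0 and 1 were called. Tlr4, the receptor of lipopolysaccharide, fell by 0.82 (differences -1.29 in WT, -0.52 in KO and -0.64 in S5; adjusted p = 0.0162), and its pathway kinase Irak2 differed by -0.60 in WT, -0.35 in KO and -1.26 in S5 (adjusted p = 0.0177).

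Among patterning and growth factor genes more members fell than rose, and most did not pass. Of 32 hedgehog and patterning genes 5 fell and 2 rose, against 4.51% and 4.5% of all genes (median -0.11), and 4 or 5 were called lower without each array in turn, but 0 without the WT arrays and 1 without the S5 arrays. Cdon and Gas1, co-receptors of hedgehog ligands, differed by -0.61 in WT, -0.51 in KO and -0.44 in S5 and by -0.66 in WT, -0.48 in KO and -1.35 in S5 (adjusted p = 0.00801 and 0.0108). Foxc1, a forkhead factor of mesenchyme, differed by -1.02 in WT, -0.33 in KO and -0.76 in S5 (adjusted p = 0.011). Of 37 TGF-beta, BMP and Wnt genes 3 fell, none of them called without the WT arrays, among them Id4 (-1.92 in WT, -0.43 in KO and -1.83 in S5; adjusted p = 0.0176) and Id2 (-0.96 in WT, -0.54 in KO and -0.55 in S5; adjusted p = 0.0212), which bind and block bHLH factors. Fgfr1, a fibroblast growth factor receptor, rose by 0.35 and passed in each genotype alone (common adjusted p = 0.00252), but it was not called when its probe sets were averaged (adjusted p = 0.0764). Of 33 growth factor genes 2 rose and 3 fell, and 1 and 1 were called without the WT arrays.

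Among the lists that follow, p53 and CDK inhibitor genes and Kruppel-like and C/EBP factors had the most lower calls. The other metabolic, stress and structural lists here held at most 3 calls in a direction. The shares over all genes were 4.5% higher and 4.51% lower. Of 21 hypoxia and glucose uptake genes 2 rose, Hk2, which traps glucose in the cell (0.96 in WT, 0.96 in KO and 0.42 in S5; adjusted p = 0.00515), and Pfkfb4, a regulator of glycolysis (0.50 in WT, 0.83 in KO and 0.76 in S5; adjusted p = 0.00258), and 1 fell, Pdk1. Of 23 p53 and CDK inhibitor genes 1 rose and 5 fell, the cell cycle inhibitor Cdkn1b by 0.35 (adjusted p = 0.0183). The lower count was 2 or 3 without WT replicate 1, WT_GH replicate 2, KO_GH replicate 1 or any KO, S5 or S5_GH array on its own, and 0 without the WT arrays. Of 16 Kruppel-like and C/EBP factors 1 rose and 4 fell, with 2 called lower without S5 replicate 2 and 2 without the WT arrays. Klf5 differed by 0.23 in WT, 1.38 in KO and 1.66 in S5 (unequal effects, adjusted p = 0.0228) and Klf11 by -1.14 in WT, -0.73 in KO and -0.61 in S5. Of 29 DNA replication and mitosis genes 1 rose and 1 fell, and of 28 collagen and matrix genes 3 fell, Col3a1 by 0.11 (adjusted p = 0.0348). NRF2 redox genes gave 2 higher and 2 lower of 18, cholesterol and fatty acid synthesis 1 and 2 of 22, ER chaperones 0 and 1 of 17, and smooth muscle genes 1 and 0 of 17. Without the WT arrays 1 hypoxia gene was called higher, and none in the replication, matrix, NRF2, cholesterol, chaperone and smooth muscle lists.

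Few measures of array quality or cell type moved with the hormone. The 3′ minus 5′ value of the Gapdh control probe sets, a measure of RNA length, changed by -0.02 on the log2 scale with treatment (exact permutation of treatment within genotype, two-sided p = 0.843) and that of Actb by -0.15 (exact permutation p = 0.194). The mean level of fibroblast markers differed, treated minus untreated, by -0.12 in WT, -0.09 in KO and -0.28 in S5. Its exact permutation p of 0.00926 (two-sided) was the smallest that 216 assignments allow, and 0.0833 after Benjamini-Hochberg adjustment over 9 quantities. The test therefore cannot show that the other measures stayed the same. Macrophage and blood markers differed by 0.92 in WT, 0.11 in KO and -0.16 in S5 (exact permutation p = 0.389), and their part in the common effect was not tested. The untreated WT arrays lay far apart, at 8.77 and 10.26, against 10.49 and 10.37 treated. In bulk RNA fewer cells of a type and less RNA per cell cannot be told apart.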

How the data were processed

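RNA of 12 cultures was hybridised to Affymetrix arrays, and the values analysed are the log2 expression values of 45101 probe sets that the authors deposited. GCOS and RMA are named, without settings, in the submitters' processing notes, and the log2 base was inferred from the range, 0.99 to 15.95, since no label states it. Normalization was kept as deposited. Probe sets were named through the supplied platform annotation. Not used were 64 control probe sets, 932 annotated to more than 1 gene and 9160 annotated to no gene, and the remaining 34945 gave 18193 genes, each read by its probe set with the highest mean. Of these genes 9010 had several probe sets and 18031 were in the RefSeq table (GRCm38.p6), whose promoter windows supplied the sequences.

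The common effect was fitted with limma 3.58.1 (R 4.3.3) as genotype plus treatment, with 8 residual degrees of freedom and eBayes moderation. P-values are two-sided with Benjamini-Hochberg adjustment at 0.05. A second fit with 6 group means gave the differences within genotypes and the moderated F-test of the interaction. The 2 arrays of a group limit the precision. P-values of the second fit measure the spread between these duplicates. Those of the common effect also measure how far the effect differs between genotypes, which lies in the residual of that fit. For Cish the SE was 0.84 in the common fit and 0.16 within each genotype in the second. Python 3.11.15 counted list members and motifs. The fits were tested on simulated data.

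Named genes are the first 16 higher and 12 lower by the smallest of the 3 floored differences among genes called without overlap, without predicted genes. Added to these are the 6 largest common differences with overlap or unequal effects, up to 4 members per list by smallest adjusted p, and Stat5a, Stat5b, Ghr, Jak2, Cish, Socs2, Bcl6 and Igf1. Any other list member was named after its values were seen. The comparison, the gene lists and the rule were chosen with earlier results of these data known, and only their counts are given. Alternatives were another threshold, scaling, probe set choice, prior, array weights, a replicate block and leaving out arrays or genotypes.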

Additional observations from a re-analysis of the deposited data

Results flagged for a closer look

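The effect of growth hormone differed between WT, KO and S5 cells, by limma's moderated F-test of the interaction, for 33 of the genes named in the text, 20 named by rule and 13 others. The adjusted p was 3.2e-05 for Cish, 7.32e-05 for Socs2, 9.3e-05 for Ccl2 and 0.00149 for Bcl6. In Cish, Socs2 and Bcl6 the KO difference was the smallest in size, and in Ccl2 the S5 difference stood out. The chemokine genes Cxcl10, Cx3cl1 and Cxcl2 followed with 0.00205, 0.00945 and 0.0347. Among NF-kB inhibitors and subunits it was 0.00698 for Nfkbie, 0.023 for Relb and 0.0409 for Tnfaip3. Among interferon response genes it was 0.0155 for Irf1 and 0.0177 for Gbp7. Arhgap20 reached 0.00582 and Hivep3 0.00958, each with its largest difference in WT. Stat5a (0.0156) and Stat5b (0.0231) rose in WT cells and, by the probe sets used, lay in the low mode in KO and S5. Another Stat5a probe set read 9.88 untreated and 9.09 treated in S5, so the Stat5a value does not describe S5. The growth factor genes Fgf7 and Csf1 had 0.0183 and 0.0263, Klf5 had 0.0228 and the metallothionein gene Mt2 had 0.0406. Low values compress differences, and KO or S5 groups of Cxcl10, Cxcl2, Cish and Klf5 lay there. The 13 others were named after their values were seen. Among them the adjusted p was 1.91e-09 for Il1b, 4.64e-07 for Ccl20, 3.23e-06 for Traf1, 5.75e-06 for Ccl22, 1.47e-05 for Saa3, 0.000471 for Rel, 0.00207 for Tnip1, 0.00582 for Ccl4, 0.0181 for Nfkbib and 0.0411 for Rela, each with its largest difference in WT. It was 0.00464 for Cyp26b1, 0.00698 for Ccl7 and 0.0376 for Gab2, whose differences were largest in WT, S5 and S5. All KO and S5 group means of Il1b, Saa3, Ccl4 and Ccl20 lay below 4. The WT arrays also carried the macrophage markers given above, and the part of those cells in these differences was not tested.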

How the results depend on the processing

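Of the 28 genes named as higher or lower in every genotype, none reversed under any alternative. Leaving out arrays or genotypes could not reverse them, because the rule chose genes that move the same way in each genotype. Quantile normalization, median centring, the mean of probe sets, a filter on dim genes and a trended prior kept every call. The counts moved more. The common effect called 819 genes higher and 820 lower, and 632 and 600 of them without overlap. An adjusted p under 0.01 left 160 and 129, all without overlap, and a log2 difference of at least 1 left 76 and 40, with 63 and 26 without overlap. Averaging the differences of a fit with 6 group means called 1292 and 1353, and array weights called 1415 lower. Every probe set tested on its own gave 949 higher without overlap, over 34945 tests. Replicate numbers did not pair the samples: same-numbered arrays' deviations correlated with r of -0.049, -0.363 and 0.086 in WT, KO and S5. A fit with the replicate block called 261 and 199, with 238 and 188 without overlap, and 190 unequal effects in place of 531, and 12 of the 28 named genes lost the call. Without the WT arrays 163 and 89 were called, without the S5 arrays 80 and 55, all without overlap. Leaving out each array in turn gave 392 to 901 higher and 380 to 914 lower, 381 to 809 and 360 to 823 without overlap, and 345 to 588 unequal effects. The cause of these shifts was not tested, beyond fewer arrays and more tests. The share of higher calls, 50.0%, was 65.5% at a log2 difference of at least 1 and 64.7% without the WT arrays. For 104 named genes, 2118 of 2600 values kept their side of the threshold, 473 lost it, 9 gained it and 0 reversed.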

Other observations

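Ribosome biogenesis genes, whose products cut, modify and assemble ribosomal RNA in the nucleolus, were among the genes higher in every genotype. This list of 70 was drawn up after the values were seen, so its counts only describe these arrays. Of 68 members measured 35 were called higher in the common effect, 26 of them without overlap, and none lower, with a median log2 difference of 0.29 and medians of 0.29 in WT, 0.25 in KO and 0.36 in S5. Over all genes 4.5% were called higher, and 3.47% without overlap. Tsr1, which helps to assemble the small subunit, went from 11.97 and 12.05 to 12.46 and 12.46 in WT, from 11.15 and 11.31 to 11.64 and 11.71 in KO and from 11.17 and 11.22 to 11.75 and 11.76 in S5. Its common difference was 0.48 (SE 0.03, limma adjusted p = 0.000678), and it passed in each genotype alone. Ppan, a factor of the large subunit, differed by 1.48 in WT, 1.06 in KO and 1.60 in S5 (adjusted p = 0.00179). Nop2, an rRNA methyltransferase, differed by 0.61, 0.50 and 0.78 (adjusted p = 0.00213), and Nhp2, a protein of the particles that guide pseudouridylation, by 0.76, 0.84 and 0.86 (adjusted p = 0.00312). The effects of 2 members were called unequal, a share near the 2.92% of all genes. The count was 23 without any one of WT replicate 2, WT_GH replicate 2, S5 replicate 1 and S5_GH replicate 1, and it was 10, 26 and 5 without the WT, KO and S5 arrays.

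Beside the genes named in the text, some that passed in each genotype alone were the SUMO and Ran regulator Rangap1 (0.40 in WT, 0.55 in KO and 0.43 in S5), the signalling adaptor Gab2 (0.28, 0.46 and 0.70), and, among those that fell, Tspyl4 (-0.91, -0.83 and -0.56). These 3 genes were chosen after their values were seen.

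A further 476 genes had effects called unequal between genotypes and were not called in the common effect. Among them Il1b, the cytokine interleukin 1 beta, differed by 9.36 in WT, -0.01 in KO and -0.01 in S5, and Saa3, an acute-phase protein, by 9.21, 0.75 and 0.01 (common adjusted p = 0.209 and 0.169). All KO and S5 group means of these genes lay in the low mode. The WT arrays also carried macrophage markers, whose part in these differences was not tested. Cyp26b1, which degrades retinoic acid, differed by 4.47 in WT, -0.31 in KO and 3.33 in S5 (common adjusted p = 0.0578).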
